A study of Mus musculus with 14 samples.

Results

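Zinc finger genes named Zfp and a number encode one of the largest groups of DNA-binding proteins in the mouse, and 159 of them were detected in single cloned 2-cell embryos. The 159 genes were chosen by their measured values: of 347 genes in the data whose symbol is Zfp followed by a number alone, they reached at least 1 RPKM (reads scaled to transcript length and to the reads counted in the library) in at least 3 of the 14 embryos, after the RefSeq entries of a gene had been summed. Zfp352 and Zfp42 were left out of the set by the rule. The same threshold was passed by 7518 of all 20242 genes.

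Most proteins of this kind carry C2H2 zinc fingers, short loops in which 2 cysteines and 2 histidines hold a zinc ion and each loop can touch a few bases of DNA. Many also carry a KRAB domain, which recruits TRIM28 and, through it, the H3K9 methyltransferase SETDB1, and these proteins are known for silencing retroelements and for keeping imprints in the early embryo. Others under the same name have no KRAB domain and act as transcription factors, as partners of chromatin complexes, or on RNA, ribosomes and ubiquitin.

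The embryos were made by somatic cell nuclear transfer (SCNT), in which the nucleus of a B6D2F1 cumulus cell replaced the chromosomes of an oocyte from a B6D2F1 female aged 8 to 10 weeks, and each was collected whole at the 2-cell stage, 28 h after the transfer according to the labels. Trichostatin A (TSA), a histone deacetylase inhibitor, was given at 50 nM for the first 8 h of activation, and vitamin C (VC), a cofactor of enzymes that demethylate DNA and histones, at 10 µg/ml either over the same 8 h or from 8 to 15 h. There were 3 control embryos, which received neither, 1 VC(0-8h) embryo, 2 VC(8-15h), 3 TSA(0-8h), 2 TSA(0-8h)+VC(0-8h) and 3 TSA(0-8h)+VC(8-15h) embryos. All 14 were cultured in medium with deionized albumin, so that the culture medium did not differ between groups. Embryos fertilized by sperm were not analysed here, and donor cells and oocytes shared the B6D2F1 background.

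RNA of 2 of 9 µl from 1 embryo went into each library, after 2 rounds of PCR (14 and 12 cycles), so a gene with few molecules could be copied from a very small number of them. Between 3021540 and 13589389 reads were counted per embryo, and 3 reads on a Zfp gene of the median length of 3490 bases correspond to 0.284 RPKM in the shallowest and 0.0633 RPKM in the deepest library. Such floors cover counting error only. Between 3105 and 6163 genes reached 1 RPKM in an embryo. Of 10 oocyte genes 8 to 10 reached 1 RPKM in some embryo of each group, whereas of 12 cumulus and granulosa cell genes 1 or 2 did, with Fshr and Inha at 0 in all groups. The summed level of these 12 genes nevertheless reached 144.1 RPKM in a TSA(0-8h) embryo, 63.6 RPKM in a TSA(0-8h)+VC(8-15h) embryo and 47.4 RPKM in the VC(0-8h) embryo, and was at most 18.4 RPKM in the control embryos. The summed level of 8 genes of the 2-cell embryo, such as Zscan4c and Tdpoz3, ran from 4.55 to 189.7 RPKM in the control embryos, from 12.5 to 140 RPKM with TSA(0-8h), from 245.6 to 467.9 RPKM with TSA(0-8h)+VC(8-15h), from 167 to 444 RPKM with TSA(0-8h)+VC(0-8h) and from 143 to 1073 RPKM with VC(8-15h), and was 141 RPKM with VC(0-8h). All 8 reached 1 RPKM in some embryo of the TSA(0-8h)+VC(8-15h) group, and 6 did in the control group. The VC(8-15h) and TSA(0-8h)+VC(0-8h) groups had 5 each, the TSA(0-8h) group 4 and the VC(0-8h) embryo 3. Zscan4c, Zscan4d and Zscan4f were at 0 in the TSA(0-8h)+VC(0-8h) group. Zscan4f was also at 0 in the TSA(0-8h) and VC(8-15h) groups. The labels name no batch, but the identifiers of the deposited files fall into 3 sets of 5, 6 and 3 embryos that each share a library identifier and a sequencing lane. These sets are called pools here, and control, TSA(0-8h)+VC(8-15h) and TSA(0-8h) each had 1 embryo in each pool.

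Zfp57, a KRAB protein that keeps DNA methylation at imprinted genes after fertilization, had the highest median level of the set, 1120 RPKM over the 14 embryos, and was above 1 RPKM in all of them. The gene lies on chromosome 17 (mm9, 37138108 to 37147580, plus strand) and its longest annotated protein has 421 residues with 3 C2H2 fingers. To show what such a finger looks like in DNA, single fingers are given for Zfp57, Zfp91 and Zfp970, which were among the 10 highest genes and at 1 RPKM or more in every embryo. The codons for the zinc-holding cysteines and histidines are in capitals. They are finger 1 of 3 of Zfp57 (mm9, chr17:37146624-37146686, plus strand), finger 2 of 5 of Zfp91 (chr19:12849314-12849382, minus strand) and finger 1 of 14 of Zfp970 (chr2:177259736-177259798, plus strand), all inside 1 coding exon.
Zfp57: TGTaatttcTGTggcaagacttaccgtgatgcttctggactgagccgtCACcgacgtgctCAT
Zfp91: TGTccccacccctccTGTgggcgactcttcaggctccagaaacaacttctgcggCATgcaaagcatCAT
Zfp970: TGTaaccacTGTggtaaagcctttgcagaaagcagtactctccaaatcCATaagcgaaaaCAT
The fingers of Zfp57 and Zfp970 have the same spacing of these codons over 63 bases. The finger of Zfp91 has 2 more codons between its cysteines and spans 69 bases.

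Summed over its entries, Zfp57 was at 1903, 600 and 2113 RPKM in the control embryos, at 1881 RPKM in the VC(0-8h) embryo, at 865 and 79.8 RPKM in the VC(8-15h) embryos, at 191, 1569 and 1376 RPKM in the TSA(0-8h) embryos, at 4914 and 1413 RPKM in the TSA(0-8h)+VC(0-8h) embryos and at 690, 110 and 66.8 RPKM in the TSA(0-8h)+VC(8-15h) embryos. The sums were set largely by short pieces of the gene. Zfp57 has 3 entries in the data, with RPKM values that rest on 2088, 264 and 253 bases, and 94.2% of the highest sum came from the 2 short entries. In that embryo both short entries held 1950 reads and the long entry held 1956, so the sum may count the same reads more than once. In control replicate 2, in contrast, the long entry held 8504 reads and the short ones 5 and 7. On the 2088-base entry alone the levels were 181, 593 and 228 RPKM in the control embryos, 176 RPKM in the VC(0-8h) embryo, 86.8 and 75.1 RPKM in the VC(8-15h) embryos, 37.2, 93.7 and 201 RPKM in the TSA(0-8h) embryos, 287 and 207 RPKM in the TSA(0-8h)+VC(0-8h) embryos, and 79.9, 105 and 14.1 RPKM in the TSA(0-8h)+VC(8-15h) embryos. On this entry all 3 control embryos were above all 5 embryos that received VC from 8 to 15 h, with or without TSA. This split joins 2 treatments and was made after the values were seen. The share of all genes that split in the same way was not computed. Of the 3 embryos with VC over the first 8 h, at 176 to 287 RPKM, the VC(0-8h) embryo was also below all control embryos. The TSA(0-8h) embryos, which received no VC, overlapped with those given VC from 8 to 15 h. In each of the 3 pools both the TSA(0-8h)+VC(8-15h) embryo and the TSA(0-8h) embryo were below the control embryo.

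The other 9 of the 10 genes with the highest medians were Zfp970 (213 RPKM), Zfp664 (136 RPKM), Zfp513 (109.8 RPKM), Zfp212 (96.2 RPKM), Zfp131 (86.4 RPKM), Zfp91 (80.6 RPKM), Zfp821 (77.0 RPKM), Zfp655 (65.2 RPKM) and Zfp706 (52.3 RPKM). With the longest entry of each gene in place of the sum, 8 of these 10 stayed among the highest, Zfp592 and Zfp106 came in for Zfp212 and Zfp131, and Zfp57 came second at 140 RPKM after Zfp970. Zfp970 was the most even of the genes at 1 RPKM or more in every embryo, with an SD of 0.75 on the log2(RPKM+1) scale over the 14 embryos and a range of 47.4 to 287 RPKM. Its value is uncertain, because 53.8% of the 50-base stretches of its transcript also occur in another gene. Zfp91, an E3 ubiquitin ligase (SD 0.86, 27.8 to 205 RPKM), and Zfp106, an RNA-binding protein (SD 0.91, 12.7 to 115 RPKM), were almost as even. They share no such stretch with a protein-coding transcript of another gene. Zfp513 was at 464 RPKM in one TSA(0-8h) embryo and at 0.90 and 4.38 RPKM in the others of that group.

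**Figure D1:**
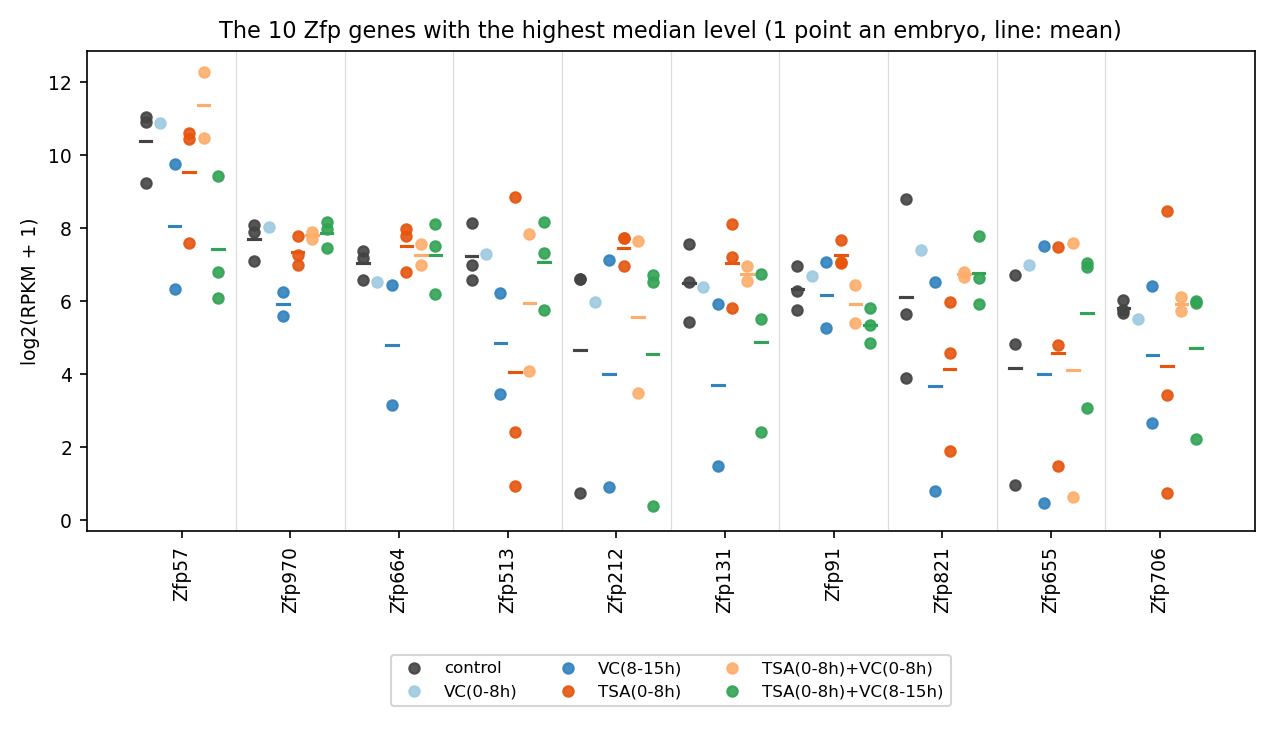
Level of the 10 Zfp genes with the highest median, on the y axis as log2(RPKM+1), with 1 point per embryo in 6 columns per gene for the 6 groups and a short line at the mean of each group with 2 or 3 embryos. The levels are sums over entries. Zfp57 lies above the other genes in most embryos, whereas Zfp970 stays in a narrow band. The 3 lowest sums of Zfp57 (66.8 to 110 RPKM) belong to 3 of the 5 embryos given VC from 8 to 15 h. On its 2088-base entry, which is not drawn, this ranking does not hold. There TSA(0-8h) replicate 1, without VC, is at 37.2 RPKM, below VC(8-15h) replicate 2 at 75.1 RPKM.

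Detection of the set was uneven between embryos. Only 10 of the 159 genes reached 1 RPKM in all 14 embryos (Zfp57, Zfp970, Zfp664, Zfp131, Zfp91, Zfp592, Zfp106, Zfp622, Zfp68 and Zfp971), which is 6.29% of the set beside 11.2% of all detected genes. In contrast, 18 genes reached it in exactly 3 embryos (11.3% beside 13.3% of all detected genes) and 27 in exactly 4 (17.0% beside 11.1%). The median over the embryos was at or above 1 RPKM for 78 genes of the set, 49.1% beside 55.7% of all detected genes. It was at or above 10 RPKM for 39 of the 159, beside 2514 of all 7518 detected genes. In at least 1 embryo 63 of the 159 reached 100 RPKM, beside 3878 of the 7518. A value of 0 in at least 1 embryo was found for 101 genes, or 63.5% beside 57.7% of all detected genes. Zfp949 shows how far 1 embryo could stand apart: it was at 1153 RPKM in TSA(0-8h)+VC(8-15h) replicate 2 and at most 16.4 RPKM in the other 13. Of that value 98.3% came from an entry of 146 bases, and its longer entry was at 19.4 RPKM there.

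In all, 42 of the 159 genes had 2 to 4 entries, and 15 had an entry that rested on fewer than 500 bases. For 10 genes such short entries gave over 50% of the highest sum, among them Zfp568 (98.1%), Zfp639 (99.99%), Zfp981 (98.6%), Zfp638 (89.9%) and Zfp574 (90.3%). These peaks are therefore levels of a piece of a gene, and the value of the longest entry is given beside them where they enter a result.

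**Figure D2:**
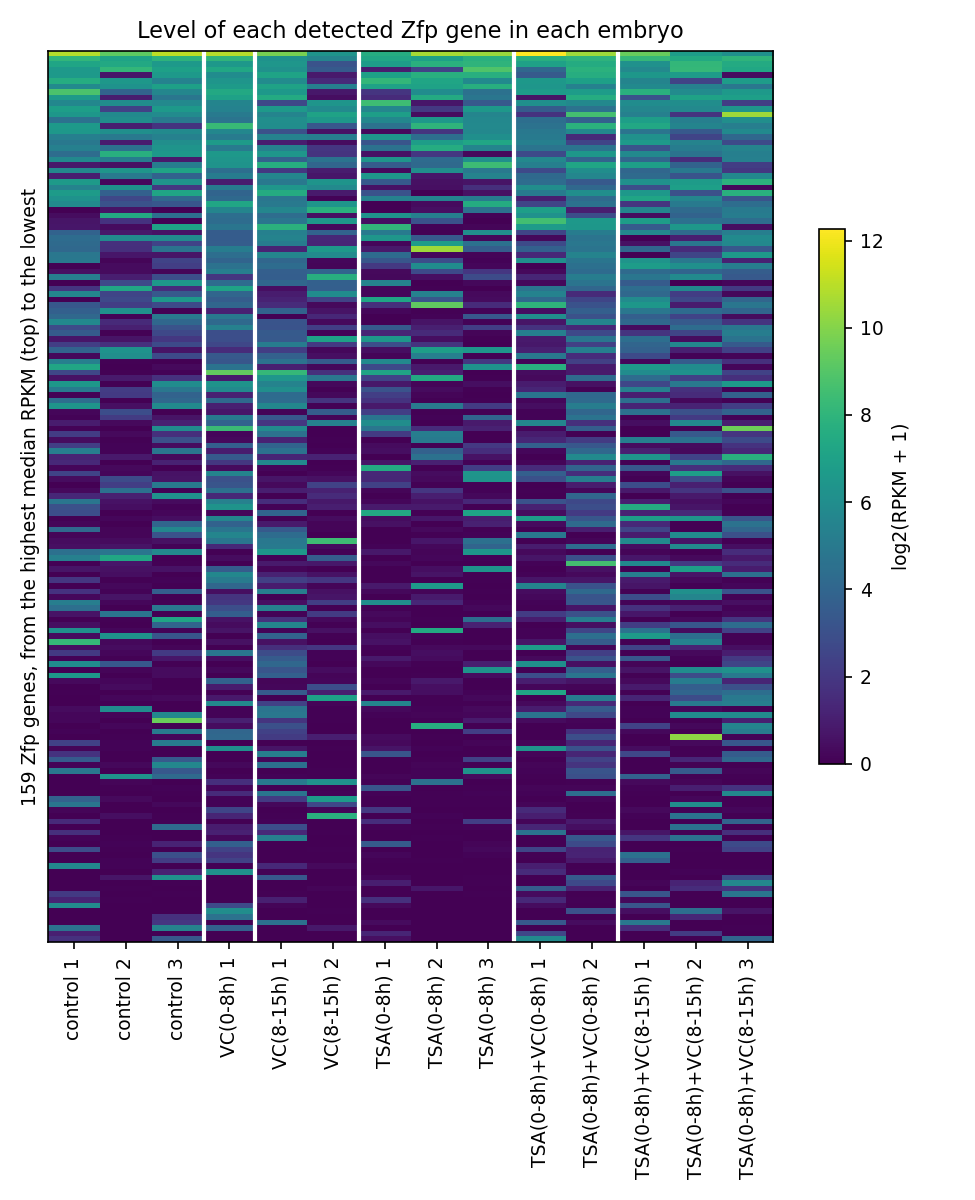
Level of each of the 159 Zfp genes (rows, from the highest median at the top to the lowest) in each of the 14 embryos (columns, with white lines between the 6 groups), as log2(RPKM+1) on the colour scale from 0 to about 12. The bright upper rows are shared by most embryos, and below them most genes are bright in a few embryos that differ from gene to gene.

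The number of genes of the set at 1 RPKM or more was 89, 55 and 89 in the control embryos, 63, 53 and 60 in the TSA(0-8h) embryos, and 91, 105 and 103 in the TSA(0-8h)+VC(8-15h) embryos. The TSA(0-8h)+VC(8-15h) and TSA(0-8h) embryos did not overlap in this count, and control replicate 2 lay among the TSA(0-8h) embryos. The VC(0-8h) embryo had 110, the VC(8-15h) embryos 110 and 60, and the TSA(0-8h)+VC(0-8h) embryos 79 and 117. The count moved with the number of all genes at that level, which was 3298 to 3966 in the TSA(0-8h) embryos and 5082 to 5290 in the TSA(0-8h)+VC(8-15h) embryos. As a share of all genes at 1 RPKM or more, the set made up 1.84%, 1.54% and 1.79% in the control embryos, 1.62%, 1.61% and 1.51% in the TSA(0-8h) embryos, and 1.79%, 2.05% and 1.95% in the TSA(0-8h)+VC(8-15h) embryos. The part of the sparser libraries in the lower counts was not tested.

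**Figure D3:**
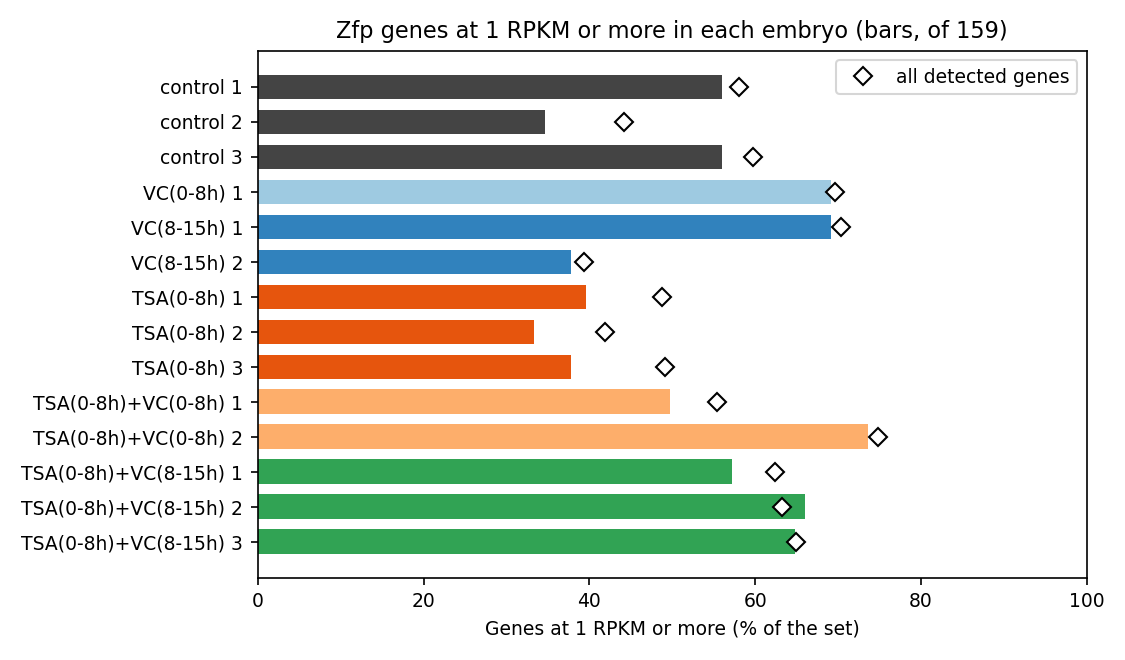
Share of the 159 Zfp genes at 1 RPKM or more in each embryo (bars, coloured by group, in %) and the same share of all 7518 detected genes (open diamonds). Bars and diamonds rise and fall together, with 33.3% to 39.6% of the set in the TSA(0-8h) embryos and 57.2% to 66.0% in the TSA(0-8h)+VC(8-15h) embryos.

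The threshold fell within a continuous range of levels. Ordered by the third highest of the 14 values, the genes just inside it were Zfp991 (1.03 RPKM), Zfp120 (1.05 RPKM), Zfp691 (1.11 RPKM) and Zfp566 (1.22 RPKM), and those just outside were Zfp943 (0.837 RPKM), Zfp213 (0.814 RPKM), Zfp689 (0.812 RPKM) and Zfp111 (0.789 RPKM). Of the 188 genes that were not detected, 35 reached 1 RPKM in 2 embryos, 63 in 1 and 90 in none, and 21 of these were at 0 throughout.

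Detection was about as frequent with a KRAB domain as without one. A coding sequence in the mm9 annotation was matched for 152 of the 159 genes, and a sequence signature of the KRAB domain was found in 75 of them and not found in 77. Of all Zfp genes with the signature 45.2% (75 of 166) were detected, and of those without it 44.8% (77 of 172). The signature is a strict one, so some proteins without it may still have the domain. By matches to the finger pattern, detected proteins with the signature had a median of 11 fingers (0 to 23) and those without it a median of 7 (0 to 36). A count of 0 does not show that a protein has no finger. Zfp142, with 36 fingers, reached 1 RPKM in 7 embryos, and Zfp462, with 33, in 4. In 13 of the 14 embryos a smaller share of the genes with the signature than of those without it was at 1 RPKM or more. The shares were 64.0% against 72.7% in the VC(0-8h) embryo but 37.3% against 37.7% in VC(8-15h) replicate 2. In TSA(0-8h) replicate 1 the order was turned, 48.0% against 31.2%. The 19 detected genes with uncertain levels described below, which share many stretches with another gene, all have the signature.

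**Figure D4:**
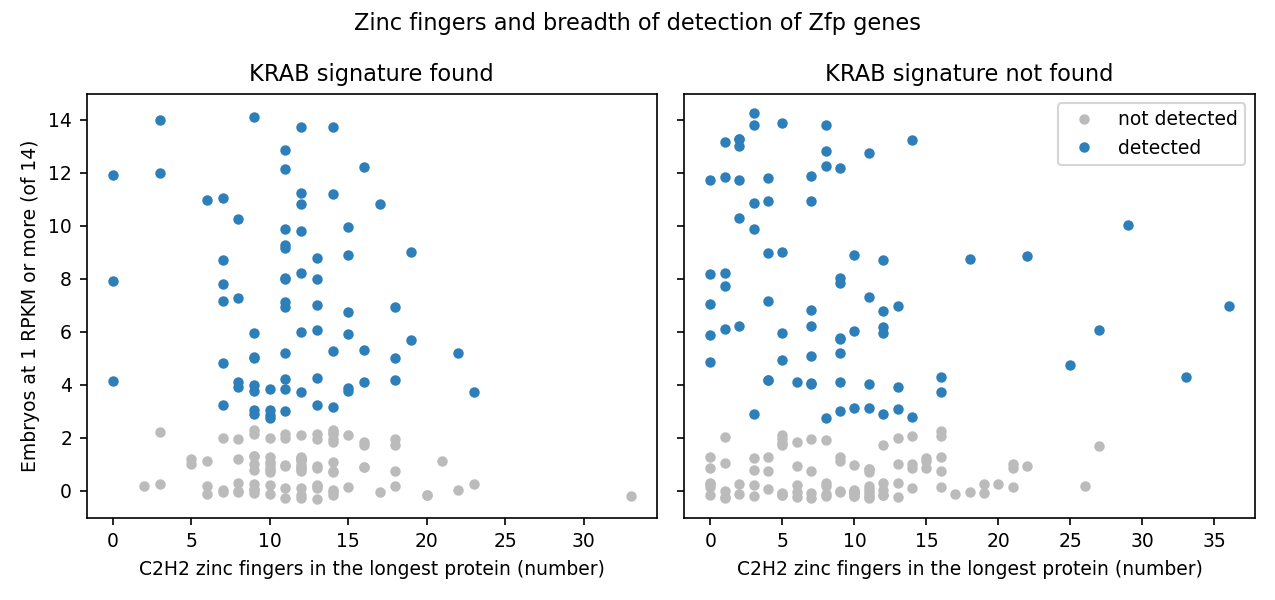
Number of C2H2 zinc fingers in the longest annotated protein (x axis) against the number of the 14 embryos with at least 1 RPKM (y axis, points spread slightly so that they do not overlap), for Zfp genes with the KRAB signature (left) and without it (right), with detected genes in blue and the others in grey. The detected genes have a median of 11 fingers on the left and 7 on the right, and the widest range, up to 36, is on the right. Fingers are counted as matches to the pattern given in the text.

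Detected Zfp genes came from 20 chromosomes, with 29 of 86 on chromosome 7, 16 of 40 on chromosome 17 and 14 of 22 on chromosome 4. On chromosome 13 there were 5 of 28. A run of 10 detected genes, from Zfp980 to Zfp984, lies within chr4:145104787-147183895 (mm9), where the data hold 11 Zfp genes in all. Many of these neighbours are near copies of each other. Stretches of 50 bases, the length of a read, were compared with the protein-coding transcripts of other genes for the 152 detected genes with a matched sequence. In 19 of them more than 20% of all stretches also occur in another gene, and 8 of these 19 are on chromosome 4 and 4 on chromosome 2. Copies outside protein-coding transcripts were not searched. Zfp664, Zfp131, Zfp973, Zfp319, Zfp383, Zfp433 and Zfp994 had no matched sequence and were not assessed. The levels of the 19 genes are uncertain, since a read could have been counted for either copy. All 19 have the KRAB signature, so this limit bears on each contrast of genes with and without it.

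Zfp97 and Zfp960, neighbours on chromosome 17, show the problem in sequence. Their coding sequences, 1641 bases each, differ at 30 bases and are 98.2% identical, and the proteins differ at 20 residues. The first 60-base window in 1 exon of both genes that holds no difference (chr17:17279700-17279759 in Zfp97 and chr17:17222485-17222544 in Zfp960, plus strand) reads the same in both.
Zfp97 and Zfp960: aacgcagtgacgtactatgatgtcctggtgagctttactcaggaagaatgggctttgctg
The window with the most differences, 11 in 60 bases, is at chr17:17282489-17282548 in Zfp97 and chr17:17225274-17225333 in Zfp960, with the differing bases in capitals.
Zfp97: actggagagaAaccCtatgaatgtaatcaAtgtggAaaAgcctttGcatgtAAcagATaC
Zfp960: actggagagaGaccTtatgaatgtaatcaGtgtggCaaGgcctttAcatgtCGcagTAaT
In control replicate 3 Zfp97 was at 31.6 RPKM on 1188 reads, and both entries of Zfp960 held 1188 reads as well. The sum of 94.8 RPKM for Zfp960 there adds its 2 entries, of which the longer was at 36.6 RPKM, so it is no sign of a higher level than that of Zfp97. In control replicate 1 both genes were listed at 0. By the sums, Zfp97 reached 1 RPKM in 7 embryos and Zfp960 in 8.

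By known role, 22 of 33 listed Zfp genes were detected, beside 45.8% of all Zfp genes in the data. The role list was chosen with earlier results of these data known. Both keepers of imprints were among them. Zfp445, which acts beside Zfp57, was much lower than Zfp57, with a median of 4.90 RPKM, and ran from 0.0412 RPKM in TSA(0-8h) replicate 3 to 127 RPKM in VC(8-15h) replicate 2. It was at 0.66, 0.54 and 3.02 RPKM in the control embryos and at 20.4, 0.33 and 24.4 RPKM in the TSA(0-8h)+VC(8-15h) embryos, so these groups overlapped.

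All 3 genes listed for silencing of retroviral DNA or of 1 gene were detected. Zfp809, which binds the primer binding site of murine retroviruses, was at 0.66, 0.34 and 133.7 RPKM in the control embryos, at 270.3, 0.10 and 0.12 RPKM in the TSA(0-8h) embryos and at 10.3, 91.0 and 0.36 RPKM in the TSA(0-8h)+VC(8-15h) embryos. Each of these groups held both high and very low embryos. Zfp568, which represses a placental transcript of Igf2, was at 1 RPKM or more in 13 embryos, with a median of 51.4 RPKM. Its highest value, 1429 RPKM in TSA(0-8h)+VC(8-15h) replicate 3, rested on an entry of 50 bases, and the 7180-base entry was at 26.7 RPKM there. Zfp638, which binds unintegrated retroviral DNA, was also at 1 RPKM or more in 13 embryos, with a median of 14.2 RPKM.

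Of 6 listed partners of chromatin complexes 5 were detected. Zfp217, found in complexes with the demethylase LSD1, and Zfp644, found with the H3K9 methyltransferases G9a and GLP, each reached 1 RPKM in 12 embryos, with medians of 39.1 and 14.7 RPKM. Zfp277, a partner of Polycomb proteins, did so in 11 (24.0 RPKM) and Zfp281, a regulator of pluripotent cells, in 10 (24.3 RPKM). Zfp462, another partner of G9a and GLP, did so in 4, with a median of 0.119 RPKM, and Zfp827 was not detected. Among 11 listed transcription factors, Zfp143 (15.0 RPKM), Zfp335 (3.06 RPKM), Zfp148 (1.38 RPKM), Zfp750 (0.910 RPKM) and Zfp410 (0.861 RPKM) were detected. The undetected 6 included Zfp64 and Zfp711, both at 0 in every embryo.

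The group acting on RNA, ribosomes, the spindle, SUMO or ubiquitin had 7 of 11 genes detected. Among the genes of the role list, only Zfp57 and, from this group, Zfp106, Zfp622 and Zfp91 reached 1 RPKM in all 14 embryos. Zfp622, a factor of ribosome maturation, had a median of 49.2 RPKM, Zfp598, an E3 ligase that senses collided ribosomes, 31.3 RPKM, and Zfp207, which works at the spindle, 21.7 RPKM. Zfp346, which binds double-stranded RNA, was at 5.43 RPKM, and Zfp451, a SUMO ligase, at 0.489 RPKM. Zfp36 and Zfp593 were at 0 in every embryo.

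The first comparison asked how embryos given TSA and then VC differed from control embryos. In the test with limma on log2(RPKM+1), none of the 159 Zfp genes had an adjusted p under 0.05, and none of the 7518 genes did (0%), with a lowest adjusted p of 0.645 over all genes. At an unadjusted p under 0.05, 5 Zfp genes were higher (all genes 3.58%) and 3 were lower (all genes 0.918%). These counts are 3.14% and 1.89% of the set, the first of them near the background. The balance depended on the scaling: quantile normalization gave 2 higher and 3 lower, median-ratio scaling also 2 and 3, and the longest entry of each gene 3 and 4. The 5 became 2 without control replicate 3, and the 3 became 1 without TSA(0-8h)+VC(8-15h) replicate 1. The median log2 difference of the set was 0.35, beside 0.38 for all genes. The same measure under quantile normalization was 0.01, and 81 in place of 95 of the 159 genes then had a difference above 0, so the excess over 0 was nearly gone once all embryos were given the same distribution.

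Every TSA(0-8h)+VC(8-15h) embryo was above every control embryo for 21 Zfp genes (all genes 8.46%) and below for 5 (all genes 3.23%). Zfp939, a gene on chromosome 7 with 10 fingers, was at 0, 0.15 and 0.37 RPKM in the control embryos and at 114.6, 81.0 and 8.52 RPKM in the TSA(0-8h)+VC(8-15h) embryos. All TSA(0-8h) embryos were also under 1 RPKM, at 0.33, 0.65 and 0.90 RPKM. Its log2 difference from control was 5.27 (SE 2.02, limma, unadjusted p = 0.0231, adjusted p = 0.720). The VC(0-8h) embryo had 46.6 RPKM and the TSA(0-8h)+VC(0-8h) embryos 106 and 8.63 RPKM, whereas the VC(8-15h) embryos had 0 and 0.31 RPKM.

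Zfp553 was at 0, 0.55 and 0.03 RPKM in the control embryos and at 47.1, 18.0 and 32.8 RPKM in the TSA(0-8h)+VC(8-15h) embryos. Its log2 difference was 4.75 (SE 1.99, limma, unadjusted p = 0.0347). The VC(8-15h) embryos, at 47.8 and 216 RPKM, were as high, and 1 of 3 TSA(0-8h) embryos was at 22.5 RPKM. Zfp296, a protein of pluripotent cells, was at 1.33, 0.76 and 0.24 RPKM in control and at 80.8, 4.46 and 217 RPKM in TSA(0-8h)+VC(8-15h) embryos (log2 difference 4.74, SE 2.02, limma, unadjusted p = 0.0373). Both genes were thus low in all control embryos, yet neither was high only in the TSA(0-8h)+VC(8-15h) embryos.

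Zfp574, with 18 fingers, was at 0.04, 0.28 and 3.87 RPKM in control embryos and at 109.7, 70.5 and 36.5 RPKM in TSA(0-8h)+VC(8-15h) embryos, a log2 difference of 5.16 (SE 1.72, limma, unadjusted p = 0.0111). Much of this came from an entry of 237 bases. On the 4140-base entry the treated embryos were at 10.6, 18.9 and 36.5 RPKM and the log2 difference was 3.46 (SE 2.04, limma, unadjusted p = 0.114). Zfp1 was the other gene higher at this level. Its log2 difference was 4.42 (SE 1.92, limma, unadjusted p = 0.0400), and 3.73 on the longest entry (SE 2.06, limma, unadjusted p = 0.0936).

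Zfp57 was lower, by 2.95 on the log2 scale (-2.95, SE 0.89, limma, unadjusted p = 0.00624, adjusted p = 0.720), with means of 1539 ± 820 RPKM in control and 289 ± 348 RPKM in TSA(0-8h)+VC(8-15h) embryos (SD, n = 3 each). The groups overlapped in the sums, since 690 RPKM in 1 treated embryo was above 600 RPKM in 1 control embryo. On the 2088-base entry, where they did not overlap, the difference was -2.52 (SE 0.91, limma, unadjusted p = 0.0160, adjusted p = 0.707). Zfp451 was at 21.9, 27.1 and 53.4 RPKM in control and at 0.13, 0 and 1.92 RPKM in TSA(0-8h)+VC(8-15h) embryos (log2 difference -4.46, SE 1.96, limma, unadjusted p = 0.0423). It was also at 89.3 and 0.04 RPKM in the 2 VC(8-15h) embryos and at 0.73, 0.14 and 89.2 RPKM in the TSA(0-8h) embryos. Zfp957 was at 52.2, 83.1 and 142 RPKM in control and at 15.5, 30.4 and 2.96 RPKM in TSA(0-8h)+VC(8-15h) embryos (log2 difference -2.76, SE 1.26, limma, unadjusted p = 0.0498). Zfp513 joined the lower genes on its longest entry alone (log2 difference -2.93, SE 1.33, limma, unadjusted p = 0.0460). Zfp750, an epidermal transcription factor, and Zfp61 were also below control in every embryo, with log2 differences of -2.59 (SE 1.78) and -1.98 (SE 1.37) and high values in control replicate 3 alone. For Zfp61 this order rests on single reads. Control replicates 1 and 2 held 1 and 3 reads, and the TSA(0-8h)+VC(8-15h) embryos 0, 1 and 0.

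A simpler reading by presence gave few genes. Zfp239, Zfp553, Zfp672, Zfp791, Zfp871 and Zfp939 were at 1 RPKM or more in all 3 TSA(0-8h)+VC(8-15h) embryos and in no control embryo, which is 3.77% of the set beside 1.94% of all detected genes. Zfp750 alone showed the opposite, 0.629% beside 0.479%.

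The second comparison, TSA(0-8h) against control, asked what TSA did alone, with the same 3 control embryos. No Zfp gene and none of all genes (0%) had an adjusted p under 0.05 with limma, and the lowest adjusted p over all genes was 0.687. At an unadjusted p under 0.05 no Zfp gene was higher (all genes 1.2%) and 2 were lower (all genes 1.37%), and the 2 became 6 without control replicate 2 and 1 without control replicate 1 or 3 or without TSA(0-8h) replicate 2. Quantile normalization gave 0 higher and 1 lower, and median-ratio scaling 1 and 2. All TSA(0-8h) embryos were above all control embryos for 3 Zfp genes (all genes 2.94%) and below for 9 (all genes 5.59%). The median log2 difference was -0.27, beside -0.24 for all genes, and 0 under quantile normalization.

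Zfp598, the ribosome collision sensor, was at 19.9, 209 and 91.1 RPKM in the control embryos, at 0.50, 2.92 and 0.26 RPKM in the TSA(0-8h) embryos and at 55.8, 24.7 and 37.8 RPKM in the TSA(0-8h)+VC(8-15h) embryos. The TSA(0-8h) embryos were therefore below these control and TSA(0-8h)+VC(8-15h) embryos without overlap. The log2 difference was -5.24 from control (SE 1.87, limma, unadjusted p = 0.0167, adjusted p = 0.794) and 4.30 for TSA(0-8h)+VC(8-15h) over TSA(0-8h) (SE 1.69, limma, unadjusted p = 0.0316, adjusted p = 0.696). These values share the 3 TSA(0-8h) embryos, so they are not independent of each other. A low level of Zfp598 was not particular to TSA alone, since the VC(8-15h) embryos were at 85.0 and 2.59 RPKM. The TSA(0-8h)+VC(0-8h) embryos were at 5.69 and 88.5 RPKM, and the VC(0-8h) embryo was at 93.2 RPKM. Zfp982, a gene of the chromosome 4 run, was at 107, 12.7 and 148 RPKM in control and at 7.46, 0 and 0.48 RPKM in TSA(0-8h) embryos (log2 difference -4.70, SE 1.96, limma, unadjusted p = 0.0344). Zfp217 (log2 difference -3.56, SE 1.77) and Zfp277 (-3.68, SE 2.25) were below control in every TSA(0-8h) embryo with an unadjusted p over 0.05. In the other direction stood Zfp212 (2.82, SE 1.60), Zfp91 (0.93, SE 1.00) and Zfp668 (0.41, SE 0.26), the last with all 6 values under 1 RPKM.

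The third comparison set TSA(0-8h)+VC(8-15h) against TSA(0-8h), to see what VC added. The result was again 0 of 159 Zfp genes and 0% of all genes with an adjusted p under 0.05 (limma, lowest adjusted p 0.696). At an unadjusted p under 0.05 there were 5 Zfp genes higher (all genes 3.43%) and none lower (all genes 0.612%). Here too the balance depended on the scaling, with 1 higher and 1 lower under quantile normalization and 1 higher and 4 lower under median-ratio scaling, where all genes had 73 higher and 187 lower. The 5 became 13, 9 and 8 without TSA(0-8h)+VC(8-15h) replicate 2, 1 and 3. All TSA(0-8h)+VC(8-15h) embryos were above all TSA(0-8h) embryos for 22 Zfp genes (all genes 9.58%) and below for 2 (all genes 1.84%). The median log2 difference of the set was 0.87, beside 0.71 for all genes, and 112 of the 159 genes had a difference above 0. Under quantile normalization the medians were 0.12 and 0.02, and 86 genes had a difference above 0. Within the pools, the median of the Zfp genes difference was 0.44, 0.26 and 0.23 in pools 1 to 3, beside 0.12, 0.22 and 0.11 for all genes.

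Zfp281 had the lowest p of the set here. It was at 10.1, 0.44 and 0.56 RPKM in the TSA(0-8h) embryos and at 69.4, 105 and 236 RPKM in the TSA(0-8h)+VC(8-15h) embryos, a log2 difference of 5.37 (SE 1.47, limma, unadjusted p = 0.00514, adjusted p = 0.696). Its 2 entries, of 5271 and 5124 bases, had nearly equal values in most embryos, so the sum may count the same reads in both. The longer entry alone gave 4.94 (SE 1.59, limma, unadjusted p = 0.0121). The control embryos spanned both ranges, at 103, 0.22 and 81.7 RPKM. Zfp609, a transcription regulator, was at 0.15, 0.06 and 0.09 RPKM in TSA(0-8h) and at 28.3, 18.4 and 14.6 RPKM in TSA(0-8h)+VC(8-15h) embryos (log2 difference 4.23, SE 1.80, limma, unadjusted p = 0.0429), and the control embryos were at 12.5, 73.6 and 0.03 RPKM. Zfp939 (4.80, SE 1.82, limma, unadjusted p = 0.0269) and Zfp982 (4.58, SE 1.88, limma, unadjusted p = 0.0374) were the other genes at this level. Lower in all TSA(0-8h)+VC(8-15h) embryos were Zfp91, at 55.5, 39.6 and 27.8 RPKM against 132, 133 and 205 RPKM (log2 difference -1.93, SE 0.88), and Zfp212, at 90.4, 104.7 and 0.32 RPKM against 123, 210 and 210 RPKM (-2.92, SE 1.65). On the longest entry of Zfp212 the groups overlapped, with 52.8, 92.9 and 0.15 RPKM against 123, 210 and 89.9 RPKM.

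**Figure D5:**
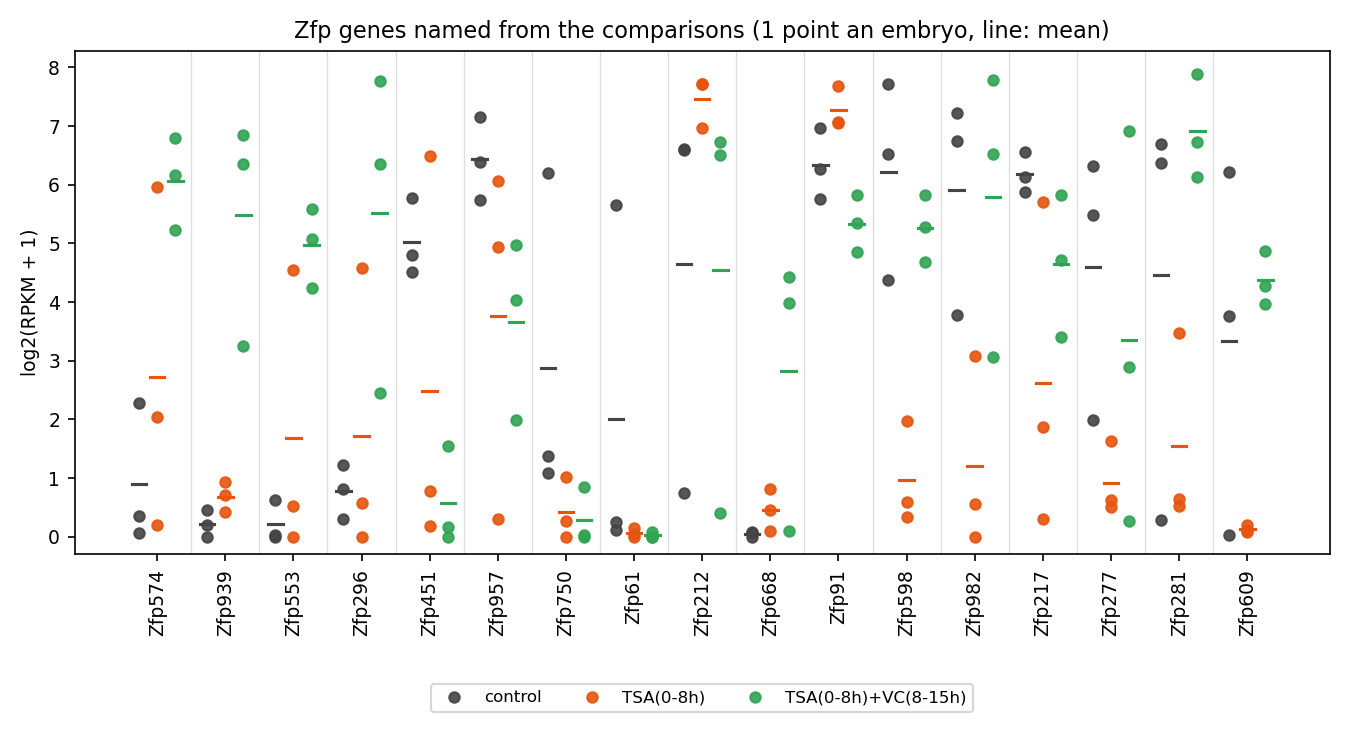
Level, as log2(RPKM+1) on the y axis, of the 17 Zfp genes named from the 3 comparisons because their groups did not overlap, with 1 point per embryo for control (dark), TSA(0-8h) alone, and TSA(0-8h) with VC(8-15h), and a short line at each mean. Zfp598 sits lowest in the TSA(0-8h) embryos, Zfp939 is high in the TSA(0-8h)+VC(8-15h) embryos and low in both other groups, and the points of a group are often several log2 units apart.

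The errors in all 3 comparisons were large. The standard error of the log2 difference had a median over the set of 1.81, 1.70 and 1.66 in the order given, and the SD within the 3 groups of 3 had a median of 1.93 for the Zfp genes and 2.06 for all detected genes. A difference that misses the threshold here does not show that a gene was unchanged. The genes with and without the KRAB signature had medians of 0.35 and 0.39 in the first comparison, -0.09 and -0.70 in the second, and 0.69 and 0.97 in the third, and the difference between the classes was not tested. Across pairs of embryos, Spearman's rho over the 159 genes averaged 0.401 in the 28 pairs of 1 pool and 0.334 in the 63 pairs from different pools. In the 11 pairs of 1 group from different pools it averaged 0.310.

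The genes through which KRAB proteins act were measured beside them. All 23 listed genes for corepressors and H3K9 methylation passed the detection threshold, beside 37.1% of all genes. The list was chosen with earlier results of these data known, so this count may reflect the choice. Trim28, the corepressor that binds the KRAB domain, was above 1 RPKM in all 14 embryos, with a median of 114 RPKM and a range of 2.25 to 220 RPKM. It was at 161, 156 and 74.8 RPKM in the control embryos and at 172, 118 and 110 RPKM in the TSA(0-8h)+VC(8-15h) embryos, and at 168, 2.25 and 26.5 RPKM in the TSA(0-8h) embryos. Cbx3 and Cbx5, which bind methylated H3K9, and Chd4, Dnmt1 and Smarcad1 were also at 1 RPKM or more in all 14.

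None of the 23 had an adjusted p under 0.05 with limma in any comparison. At an unadjusted p under 0.05, 1 was higher (all genes 3.58%) and 1 lower (all genes 0.918%) in TSA(0-8h)+VC(8-15h) against control, 1 was lower (all genes 1.37%) in TSA(0-8h) against control, and none passed in the third comparison. A single gene of 23 is too few to be read against these shares, and its values are given as a description. The levels of the 23 genes are sums over entries, and the part of short entries in them was not examined. Setdb1, the methyltransferase that TRIM28 recruits, was the one that was higher, at 0.36, 0.03 and 11.7 RPKM in control and at 41.1, 34.5 and 502 RPKM in TSA(0-8h)+VC(8-15h) embryos (log2 difference 5.12, SE 1.76, limma, unadjusted p = 0.0132, adjusted p = 0.720). Uhrf1, which guides DNA methylation in replicating DNA, was the one that was lower in both comparisons with control. It was at 326, 193 and 318 RPKM in control, at 1.76, 0.22 and 60.4 RPKM in TSA(0-8h) and at 52.0, 6.56 and 36.8 RPKM in TSA(0-8h)+VC(8-15h) embryos. Its log2 difference from control was -5.53 (SE 1.62, limma, unadjusted p = 0.00538) with TSA alone and -3.46 (SE 1.01, limma, unadjusted p = 0.00520) with TSA and VC. In groups without a test, Uhrf1 was at 2.37 RPKM in the VC(0-8h) embryo and at 63.3 and 722 RPKM in the VC(8-15h) embryos.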

How the data were processed

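Single-embryo total RNA libraries were sequenced as single reads of 50 bases. The authors mapped the reads to mm9 with TopHat2 (the submitters' processing notes give no version), counted them over UCSC-annotated exons and deposited RPKM, normalized to total counts and transcript length, per RefSeq entry. Entries were assigned symbols through RefSeq (GRCm38.p6 table, names only; 25250 of 25650 matched) and summed per gene. Whole reads and lengths were recovered from the steps of the values (14531 of 14532 entries, within 0.01 base). They showed that some entries of a gene rest on a short piece of it. Positions, fingers (C, 2 to 4 residues, C, 12 residues, H, 3 to 5 residues, H) and KRAB signatures came from the mm9 genome and GENCODE M1.

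Groups and replicate numbers came from the labels. Each replicate is 1 embryo. The study states 3 independent nuclear transfer experiments but not which embryo came from which, so the spread may be partly technical. Genes at 1 RPKM in at least 3 of 14 embryos were tested on log2(RPKM + 1), which understates the change of low genes, with limma 3.58.1 (R 4.3.3; trend, Benjamini-Hochberg over all 7518 genes, two-sided). As the deposited values are RPKM, no count model was run, also not on the recovered reads, which can hold a read in several entries. Pools were read from the library identifier of each file. In each comparison same-numbered embryos share a pool. Their deviations from the group means correlated at 0.0125 to 0.0580, beside means of -0.0259 to -0.00805 between embryos of different numbers. The numbers were not treated as pairs in the main fits, and a replicate block was an alternative. A low correlation does not show that the pool had no part.

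The members and lists were chosen with earlier results of these data known. Named genes were the 10 highest medians, the detected genes of the role list, in each comparison and direction up to 4 with the smallest p among those with no overlap between groups, and the 4 nearest the detection threshold on each side. Zfp1, Zfp949, Zfp639, Zfp981, genes named for presence or sequence, and single corepressors were named after their values were seen. Alternatives were the pseudocount, filters, scalings, replicate block, a joint fit, single entries, no trend, and leaving out each embryo. The longest entry of each gene was added after seeing the data.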

Additional observations from a re-analysis of the deposited data

How the results depend on the processing

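With each RefSeq entry tested on its own, 1 of 8167 entries (an entry of Arhgap1, log2 difference 9.27, adjusted p = 0.0400) was called in TSA(0-8h)+VC(8-15h) against control. In every other alternative, including the longest entry of a gene, 0 genes were called in each comparison, and Zfp genes called stayed at 0 in all. Leaving out each embryo in turn gave 0 to 0. The replicate block also gave 0 called genes in each comparison, and same-numbered embryos share a pool, with deviations that correlated at 0.0580 or less; at an unadjusted p under 0.05 it left 3 higher and 1 lower Zfp gene in the first comparison and 3 higher in the third. Of 412 recomputed differences of named Zfp genes 411 kept their direction. Apart from Zfp57, which was added to every comparison, these genes were picked in the same data. They were picked for groups without overlap or for an unadjusted p under 0.05 with limma. Most alternatives could then hardly turn a direction, so this count is no support for the differences. Zfp57 in TSA(0-8h) against control turned from -0.85 to 0.13 without TSA(0-8h) replicate 1, and ranged down to -1.43 without control replicate 2. Median-ratio scaling brought the median of all genes from 0.38, -0.24 and 0.71 to -0.02, -0.06 and 0.04 in the 3 comparisons, and the set's to 0.05, -0.12 and 0.37. The number of detected genes was 146 at 2 RPKM, 175 at 0.5 RPKM, 141 with 4 embryos and 158 by the longest entry. At an unadjusted p under 0.05, 5 higher Zfp genes in the first comparison and 5 in the third became 2 to 7 and 4 to 13 when 1 embryo was left out. Depth gave 3 reads on a median Zfp gene at 0.284 RPKM or less.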
